A study of Arabidopsis thaliana with 141 samples.

Results

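A time course of Arabidopsis thaliana seedlings treated with the bacterial peptide flg22 lists 32678 loci. Of these, 198 had changed little after 30 min, by the ratio given below, and had risen clearly by 60 min. They were chosen from CPM (the count of a locus scaled to all gene counts of its library), averaged over 2 libraries per time. The rule asked for a log2 ratio to 0 min, computed on CPM + 1, between -0.5 and 0.5 at 30 min and of at least 1.5 at 60 min. The ratios at 30 and 60 min therefore describe the choice and carry no test. The added 1 CPM shrinks the ratios of members below 1 CPM, so these can change several-fold within the limits. PHT3;2 had a mean of 0.044 CPM at 0 min and a ratio of 0.496 at 30 min. The group had been called silent until 60 min. That word fits few members, since 43 of the 198 were below 1 CPM before treatment, 81 lay between 1 and 10, 66 between 10 and 100 and 8 at or above 100 CPM. They are called late genes here. By annotation 194 code for proteins, 3 are pseudogenes and 1 is a non-coding RNA.

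The series holds 141 RNA-seq libraries in 49 groups, with 13.9 to 40.4 M gene counts per library. Wild-type (WT) seedlings of the time course were 7 days old and received 100 nM flg22 for 5, 10, 15, 30 or 60 min, or water at 0 min (n = 2). In the seedling sets B1 to B4 (n = 3), WT, impk36 and impk4 seedlings of the same age were pretreated for 15 min with 10 uM 3MBiP, a kinase inhibitor, and B1 also had a WT group with 0.1% DMSO in its place. Each line was then left without a stimulus or given 20 uM abscisic acid, 50 uM methyl jasmonate or 100 nM pep3 (B1), or 2 nM flg22 for 30 min or 1 h or wounding by forceps (B2). B3 (40 W UVB) and B4 (10 mM H2O2) hold WT with and without the stimulus, but impk36 and impk4 only with it. For the stimuli other than flg22 the labels give 1 h. In the adult set (n = 3), shoots of 4-week-old impk4 plants were taken untreated at 0 h, or 3, 6, 12 and 24 h after 100 uM 3MBiP or 1% DMSO (mock), together with untreated mpk4 shoots of unstated clock time. The labels name impk36, impk4 and mpk4 as genotypes without describing how these lines were built. All stimulus comparisons in B1 to B4 below are between seedlings that had 3MBiP, unless DMSO is named. Each seedling RNA pooled 8 seedlings, and nothing states that the libraries of a group came from separate experiments, so p-values measure the spread between these libraries.

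Flg22 is a stretch of bacterial flagellin that the receptor FLS2 recognises at the cell surface. Recognition sets off calcium influx, an oxidative burst and cascades of mitogen-activated protein kinases, with MPK3 and MPK6 in one branch and MPK4 in another, and WRKY transcription factors are among their targets. The first genes to respond encode signalling proteins and transcription factors, while enzymes that make defence compounds often follow. WRKY factors bind the W-box, whose letters are TTGACC or TTGACT.

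The 300 bases around the annotated start of each gene, 250 before and 50 after it, were read from the RefSeq TAIR10.1 genome. Promoters of 4 members are shown because the results below turn on them, with W-boxes on either strand in capitals (on the opposite strand they read GGTCAA or AGTCAA). AT3G63380, annotated as an ATPase family protein, had the highest 60 min ratio (3:23410311-23410610, minus strand). RLP23 encodes a receptor-like protein that detects NLP peptides of microbes (2:13862565-13862864, minus strand). PAD3 encodes the cytochrome P450 that makes the antimicrobial compound camalexin (3:9887667-9887966, plus strand). ABCG40, annotated as pleiotropic drug resistance 12, is a plasma membrane transporter (1:5338277-5338576, minus strand).
AT3G63380: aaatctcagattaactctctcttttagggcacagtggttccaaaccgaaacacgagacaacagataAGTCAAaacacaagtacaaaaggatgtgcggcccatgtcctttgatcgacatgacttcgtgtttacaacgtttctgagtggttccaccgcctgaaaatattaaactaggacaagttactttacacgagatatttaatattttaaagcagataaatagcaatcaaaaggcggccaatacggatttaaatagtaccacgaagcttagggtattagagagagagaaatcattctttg
RLP23: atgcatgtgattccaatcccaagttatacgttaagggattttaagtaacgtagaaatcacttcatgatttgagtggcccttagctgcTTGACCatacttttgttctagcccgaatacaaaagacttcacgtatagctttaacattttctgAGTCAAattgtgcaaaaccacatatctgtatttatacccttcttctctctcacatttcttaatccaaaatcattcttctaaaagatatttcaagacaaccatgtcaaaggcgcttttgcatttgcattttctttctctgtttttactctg
PAD3: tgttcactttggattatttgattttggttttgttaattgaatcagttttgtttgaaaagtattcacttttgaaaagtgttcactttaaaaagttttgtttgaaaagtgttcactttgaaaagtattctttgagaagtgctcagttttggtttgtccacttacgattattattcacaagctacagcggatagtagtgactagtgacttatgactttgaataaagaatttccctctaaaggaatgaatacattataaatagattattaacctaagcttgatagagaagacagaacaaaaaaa
ABCG40: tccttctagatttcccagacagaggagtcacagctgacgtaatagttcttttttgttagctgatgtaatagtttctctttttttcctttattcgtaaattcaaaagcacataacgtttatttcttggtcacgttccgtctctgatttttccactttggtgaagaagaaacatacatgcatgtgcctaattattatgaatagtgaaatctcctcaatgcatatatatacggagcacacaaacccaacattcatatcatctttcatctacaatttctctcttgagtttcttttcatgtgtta
AT3G63380 has 1 W-box, starting 184 bases before the gene, and RLP23 has 2, starting 163 and 100 bases before it. PAD3 and ABCG40 have none in this window. Of the 194 protein-coding late genes, 97 or 50.0% had a W-box in this window and 20.6% had at least 2. The shares were 33.0% and 8.0% over the 20642 protein-coding genes tested in B2, and 62.2% and 29.8% over 862 early and sustained genes, which had log2 ratios of at least 1.5 at both 30 and 60 min. The letters TGACG, which occur in ABCG40, were present in 25.8% of late promoters and 23.5% of all those tested. The G-box CACGTG was present in 4.6% against 8.6%, the letters TGGGCC or TGGGCT in 10.3% against 24.7%, and the telo-box AAACCCTA in 0.5% against 5.4%. These shares are descriptions, counted on both strands, and GCC-boxes (GCCGCC) were at 3.6% and 2.6%.

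Late genes were also described by their structure and place. Their median length from start to end was 2483 bases with 3 introns, and 20.1% had no intron. The 863 early and sustained genes had a median of 2143 bases and 1 intron, with 32.4% intronless, against 2372 bases, 3 introns and 16.4% over all genes tested. Late genes formed 8 pairs of direct neighbours holding 15 members, among them the aspartyl protease genes AT3G51330, AT3G51340 and AT3G51350 in a row on chromosome 3. Of all members, 48 overlapped another annotated locus, 39 of them on the opposite strand, and whether reads were counted by strand is not given in the sources used here.

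In the time course the median level of the 198 genes was 5.63 CPM at 0 min, 6.25 at 5 min, 6.28 at 10 min, 6.65 at 15 min, 6.80 at 30 min and 27.4 CPM at 60 min. The median log2 ratio to 0 min was 0.09, 0.09, 0.12 and 0.25 at 5, 10, 15 and 30 min, and 1.85 at 60 min. At 5, 10 and 15 min, times the rule did not read, 184 members stayed within 0.5 of 0 min at all 3 times as well as at 30 min, while 2, 9 and 11 lay above it. These times share the 0 min libraries with the rule. The members just past the 60 min threshold were CYP71B24, AT4G12010 and UGT73C7, with log2 ratios of 1.504, 1.512 and 1.514, and TPS13, OPT1 and AT5G61910 lay just short of it at 1.499, 1.497 and 1.491.

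AT3G63380 stood at 5.29 and 5.90 CPM at 0 min, at 8.50 and 7.10 CPM at 30 min and at 230 and 236 CPM at 60 min. ABCG40 went from 3.98 and 3.17 CPM at 0 min through 4.68 and 4.58 at 30 min to 131 and 135 CPM. PAD3 was at 0.268 and 0.308 CPM, 0.450 and 0.288 CPM, and 16.4 and 14.7 CPM at the same times. In all 3 genes both libraries of 60 min lay far above every earlier library. RLP23 took another path within the limits of the rule. It was at 0.728 and 1.23 CPM at 0 min, reached 3.17 and 3.43 CPM at 10 min, was back at 1.53 and 1.58 CPM at 30 min and stood at 14.0 and 14.2 CPM at 60 min. The most abundant member was MTO3, an S-adenosylmethionine synthetase that supplies methyl groups, at 578 and 590 CPM before treatment, 823 and 817 CPM at 30 min and 1945 and 1884 CPM at 60 min. LOH2, a ceramide synthase, was at 9.73 and 9.16 CPM at 0 min, 11.7 and 10.1 CPM at 30 min and 88.9 and 85.9 CPM at 60 min.

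**Figure D1:**
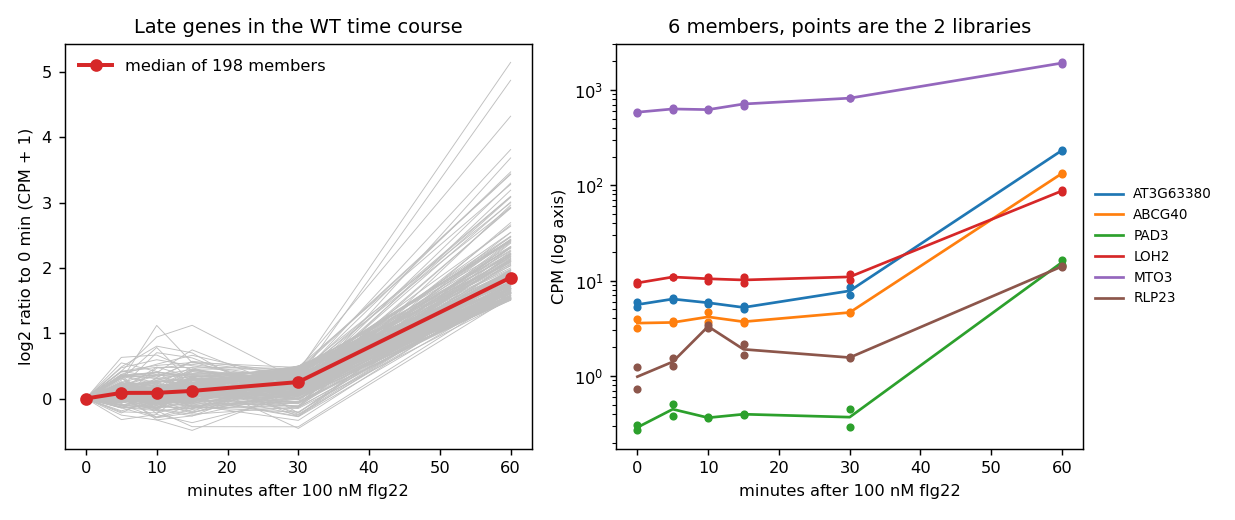
Levels of the late genes after 100 nM flg22 in WT seedlings. The left panel shows the log2 ratio to 0 min (CPM + 1) of the members against minutes, and the right panel shows the CPM (log axis) of 6 members with each of the 2 libraries as a point. The median ratio is 0.25 at 30 min, within the limits of the rule, and 1.85 at 60 min.

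Set B2 repeated flg22 at 2 nM, a lower dose and in seedlings that had 3MBiP, in libraries that did not choose the members. After 1 h, 192 of the 198 late genes rose and 2 fell, with a median log2 change of 1.76. Over all 21223 genes tested, 29.8% rose and 30.6% fell, with a median of -0.01. Between 30 min and 1 h, 190 late genes rose with a median of 1.38 and 0 fell, where 24.5% of all genes rose and 25.3% fell (edgeR's quasi-likelihood test, 192 at an unadjusted p under 0.05; DESeq2 also called 190 higher). After 30 min of this dose, 86 late genes already rose and 16 fell (22.1% and 21.1% of all genes), with a median of 0.28, and 129 members stayed within 0.5 of the unstimulated level. Of the 863 early and sustained genes, 860 rose at 30 min with a median of 3.51, and 448 rose and 285 fell between 30 min and 1 h. The 30 min and 1 h comparisons share their unstimulated libraries.

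PAD3 was at 1.83, 1.86 and 1.92 CPM in unstimulated WT, at 1.13, 1.60 and 1.41 CPM after 30 min of flg22 and at 34.7, 27.5 and 32.8 CPM after 1 h. The 1 h libraries did not overlap with the others, and the step from 30 min to 1 h was 4.50 ± 0.16 on the log2 scale (standard error, adjusted p = 2.9e-23). ABCG40 was at 3.55, 4.38 and 3.91 CPM without flg22, at 3.52, 4.67 and 3.87 CPM after 30 min and at 101, 79.0 and 88.4 CPM after 1 h, so the first groups overlapped and the 1 h group stood alone. AT3G63380 already differed at 30 min, with 5.59, 6.51 and 6.01 CPM before, 10.4, 11.2 and 11.2 CPM at 30 min and 207, 153 and 172 CPM at 1 h. Its step was 4.01 ± 0.15 (adjusted p = 1.8e-18). ACD6, an ankyrin protein whose overactive allele causes cell death, also moved early at this dose, from 3.19, 2.79 and 2.75 CPM to 13.6, 8.67 and 10.3 CPM at 30 min and 117, 87.1 and 96.6 CPM at 1 h.

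Of the 6 members that did not rise at 1 h, MYB27, CYP78A7, AT4G12490 and CHX16 were not called. The other members, ERF53 and AT4G28140, both annotated as integrase-type DNA-binding proteins, fell. They had risen by 4.68 and 4.86 on the log2 scale with 3MBiP alone against DMSO in B1. In all, 3MBiP without a stimulus raised 6 late genes, ERF53 and AT4G28140 among them, and lowered 29 against DMSO (4.62% and 4.03% of all genes).

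Members were sorted by annotated role after they were known, so the counts that follow are descriptions. Of all 198 late genes, 86 rose at 30 min and 192 at 1 h of 2 nM flg22 (22.1% and 29.8% of all genes). All 4 genes of sphingolipid metabolism rose after 1 h of 2 nM flg22: LOH2, LCB1, a subunit of serine palmitoyltransferase, SPHK2, a sphingosine kinase, and PGSIP6. Their median log2 change was 1.99, and all 4 had also risen at 30 min. LOH2 was at 13.6, 14.0 and 14.6 CPM without flg22, at 24.7, 21.8 and 24.1 CPM at 30 min and at 143, 117 and 131 CPM at 1 h, with no overlap between the 3 groups. LCB1 went from 38.1, 40.0 and 41.8 CPM through 57.1, 54.0 and 52.4 CPM to 122, 112 and 120 CPM. All 4 genes of indole defence rose at 1 h as well, with a median of 2.32, namely PAD3, CYP83B1 of indole glucosinolate synthesis, the tryptophan synthase subunit TSA1 and the regulator MYB122. None of these 4 was called at 30 min, with log2 changes from -0.43 to 0.49. CYP83B1 was at 209, 312 and 264 CPM unstimulated, at 249, 235 and 231 CPM after 30 min and at 942, 621 and 769 CPM after 1 h. TSA1 went from 84.3, 80.7 and 84.0 CPM through 74.1, 78.9 and 77.7 CPM to 261, 196 and 233 CPM.

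All 15 receptor kinases, receptor proteins and NLR immune receptors among the members rose at 1 h (median 1.76), as did all 10 other kinases (1.82), all 10 genes of ubiquitin transfer (1.78), 9 of 9 peroxidases and wall proteins (1.74), 8 of 8 hormone genes (2.06), 4 of 4 aspartyl proteases (1.98), 18 of 19 transport genes (1.54) and 9 of 10 detoxification enzymes and P450s (2.52). These counts stand beside 192 of all 198 late genes and 29.8% of all genes tested, so they set no role apart from the other members. AT5G45000, a TIR-type NLR, was one of the strongest in the time course, from 0.613 and 0.881 CPM to 23.5 and 23.6 CPM. WR3, which assists nitrate uptake, went there from 14.2 and 13.1 CPM to 141 CPM in both libraries. The metacaspase MC2, a protease of the cell death machinery, was at 7.00, 6.67 and 5.83 CPM in unstimulated WT of B2 and at 90.4, 85.6 and 82.0 CPM after 1 h, with no overlap. The sum of the 4 leaf markers fell at the same time, from 18517 to 18693 CPM to 12695 to 13087 CPM. The summed 7 root markers lay between 2994 and 3206 CPM without flg22 and between 3043 and 3204 CPM with it. Their part in the result was not tested. In these bulk libraries, fewer cells of a type and less RNA of the markers per cell cannot be told apart.

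The late genes stand inside pathways whose other genes were followed as lists. Beside them, 22.1% of all genes rose and 21.1% fell at 30 min, 29.8% and 30.6% at 1 h, and 24.5% and 25.3% between these times. Of 20 tested genes of indole and camalexin synthesis, 13 rose and 2 fell at 30 min and 17 rose and 0 fell at 1 h, with a median of 2.68. Their timing varied. CYP81F2 and MYB51 were early, with log2 changes of 8.00 and 5.16 at 30 min and 9.17 and 5.78 at 1 h. CYP71A12 was at 2.74 and then 8.08, and ASA1, an anthranilate synthase, was at 0.14 and then 1.77. Of 23 genes of the shikimate and phenylpropanoid pathways, 4 rose and 15 fell at 30 min, while 16 rose and 1 fell between 30 min and 1 h. PAL1 and 4CL1, the entry enzymes of phenylpropanoid synthesis, are late members, and C4H and PAL2 had log2 changes of 0.83 and 1.69 at 1 h. PAL1 was at 119, 118 and 121 CPM unstimulated, at 105, 107 and 103 CPM after 30 min and at 248, 225 and 238 CPM after 1 h, and these groups did not overlap.

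In impk36 the late genes rose less. The response to 1 h of flg22 was smaller in impk36 than in WT for 130 of the 198 late genes and larger for 5, a median difference of -0.83 on the log2 scale. Over all genes the response was smaller for 6.86% and larger for 8.27%, with a median of 0.02. Within impk36, 153 late genes still rose (27.6% of all genes) and 8 fell, with a median log2 change of 0.88 (28.2% of all genes fell). The step from 30 min to 1 h was smaller in impk36 for 116 late genes and larger for 6 (5.84% and 8.68% of all genes), and in impk4 it was smaller for 31 and larger for 15 (2.61% and 3.71%). Of the 130, 95 were still called higher in impk36 and 29 were not called there. For the 170 late genes that rose by at least 1 on the log2 scale in WT, the median ratio of the impk36 response to the WT response was 0.54, with quartiles of 0.31 and 0.76. For 854 early and sustained genes that rose as much it was 1.04. Of all 863 early and sustained genes, 264 had a larger and 221 a smaller response in impk36. After 1 h of flg22 the summed leaf markers were at 15042 to 17166 CPM in impk36 and 12695 to 13087 CPM in WT, and the root markers at 3436 to 3641 and 3043 to 3204 CPM. Reads not uniquely aligned made up 13.4 to 16.5% of the 12 impk36 libraries of B2, against 6.48 to 12.8% in WT and 6.06 to 7.55% in impk4. The part of these values in the result was not tested. The late and early lists were not tested against each other.

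**Figure D2:**
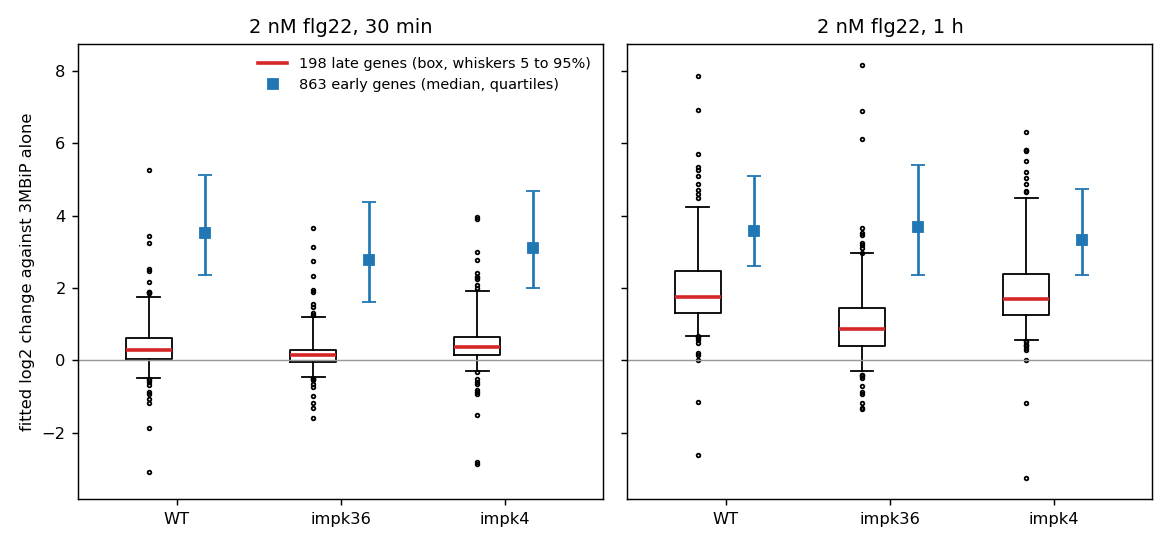
Log2 changes of late genes and of early and sustained genes with 2 nM flg22 in WT, impk36 and impk4 seedlings of set B2, all with 3MBiP. At 1 h the late genes have a median of 1.76 in WT, 0.88 in impk36 and 1.70 in impk4.

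PAD3 did not rise in impk36. Its 3 impk36 libraries were at 1.08, 0.506 and 0.785 CPM without flg22 and at 0.549, 0.629 and 0.557 CPM after 1 h, and the difference of the responses was -4.56 ± 0.39 (adjusted p = 1.7e-11). ABCG40 was at 2.39, 2.33 and 2.15 CPM and then at 3.30, 2.52 and 3.31 CPM, a difference of -4.06 ± 0.36 (adjusted p = 1.1e-09). MTO3 fell in impk36, from 918, 981 and 964 CPM to 838, 737 and 796 CPM, where WT went from 972, 1046 and 1048 CPM to 1984, 1696 and 1885 CPM. In all 3 genes the stimulated impk36 libraries lay below every stimulated WT library. PAL1 was at 107, 113 and 106 CPM without flg22 and at 109, 107 and 110 CPM with it in impk36. The response was smaller in impk36 for all 4 indole genes (median -1.91), all 4 sphingolipid genes (-1.23), 4 of the 5 phenylpropanoid and methyl donor genes (-1.13), 14 of 19 transport genes and 7 of 8 hormone genes. Over all 198 late genes it was smaller for 65.7%, and over all genes for 6.86%.

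Other members still rose in impk36. LOH2 reached 41.8, 37.2 and 40.3 CPM in impk36 from 13.0, 11.6 and 13.2 CPM, above every unstimulated library and below every stimulated WT library. The aspartyl protease AT3G51340 reached 26.8, 18.7 and 23.1 CPM in impk36 and 22.3, 18.0 and 22.7 CPM in WT, so these groups overlapped, and its responses differed by -0.01 ± 0.19. RLP23 went the other way. It stood at 0.157, 0.219 and 0.377 CPM in unstimulated WT and at 5.35, 4.96 and 5.36 CPM after 1 h, whereas impk36 went from 0.193, 0.202 and 0.058 CPM to 44.7, 35.1 and 44.6 CPM. The difference of the responses was 3.93 ± 0.66 (adjusted p = 1.9e-05). The other 4 members with a larger response in impk36 were AT2G02680 (1.23 ± 0.24), AT5G49680 (0.74 ± 0.14), EDF3 (0.63 ± 0.18) and AT2G43850 (0.60 ± 0.11).

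**Figure D3:**
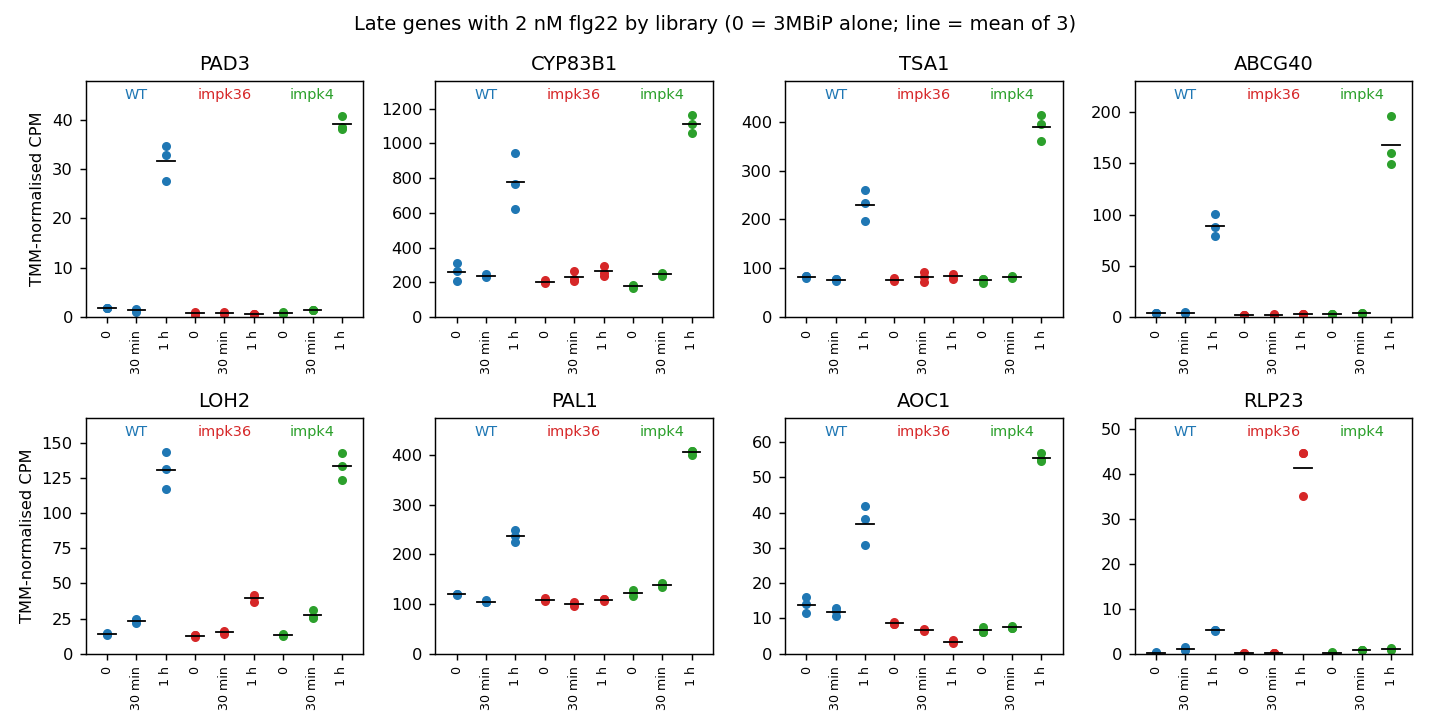
Levels (CPM after TMM normalisation, linear axes from 0) of single late genes in every library of WT, impk36 and impk4 in set B2, without flg22 and after 30 min and 1 h of 2 nM flg22. Points are libraries. PAD3 and ABCG40 rise at 1 h in WT and impk4 and stay low in impk36, and RLP23 is highest in impk36 at 1 h.

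The unstimulated lines were not equal in B2. Without a stimulus 54 late genes were lower and 13 higher in impk36 than in WT (16.6% and 14.7% of all genes), and 39 of the 130 were among the 54. In the same comparison of B1, 15 were lower and 1 higher (2.41% and 1.15% of all genes). In unstimulated impk4 of B2, 32 late genes were lower and 6 higher than in WT (1748 and 1779 of all 21223 genes). Unstimulated impk4 of B1 had 0 late genes called in either direction by edgeR (0.0471% of all genes higher and 0.033% lower), 19 at an unadjusted p under 0.05 and 1 higher by DESeq2. The summed root markers were at 3403 to 3633 CPM in unstimulated impk36 and 2994 to 3206 CPM in WT, and their part in the result was not tested. At 30 min of flg22, the response of impk36 was smaller for 23 late genes and larger for 7 (4.14% and 2.45% of all genes), and for 341 and 33 of the early and sustained genes.

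In impk4 193 late genes rose after 1 h (29.2% of all genes), with a median of 1.70, and the response was larger than in WT for 26 and smaller for 33 (5.85% and 4.60% of all genes). AOC1 of jasmonate synthesis, PAD3, ABCG40, CYP83B1 and TSA1 had the larger responses with the highest differences. PAD3 went from 0.722, 0.839 and 0.967 CPM to 38.5, 40.7 and 38.1 CPM in impk4, a difference from the WT response of 1.45 ± 0.27 (adjusted p = 3.1e-04). In impk4 its stimulated libraries lay above those of WT and its unstimulated ones below. RLP23 was lower, at 1.23, 1.09 and 0.898 CPM after 1 h, a difference of -1.88 ± 0.63 (adjusted p = 0.048), and that call was lost under several alternatives. MYB122 reached 2.99, 2.47 and 3.06 CPM in impk4 against 6.63, 9.001 and 8.09 CPM in WT. The direct comparison of the lines, added after the data were seen, gave a smaller response in impk36 than in impk4 for 116 late genes and a larger one for 14 (9.39% and 10.3% of all genes).

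Pep3 is a plant peptide released on damage and read by receptors of its own. In WT of set B1, 190 of 197 tested late genes rose with 100 nM pep3 and 1, ERF53, fell (32.2% and 30.4% of all genes). The median log2 change was 1.60. The response of impk36 was smaller for 87 and larger for 12 (8.48% and 7.66% of all genes), with a median difference of -0.40. Replicate 3 of pep3-treated impk36 stood apart, with 42.4% of reads not uniquely aligned against 5.70 and 5.73% in replicates 1 and 2. Without it the response was smaller for 85 and larger for 10, with a median of -0.45. With pep3 the summed leaf markers of WT went from 17232 to 18505 CPM to 14060 to 15518 CPM and the root markers from 2931 to 3466 CPM to 2565 to 2820 CPM, and root markers were at 3357 to 3566 CPM in pep3-treated impk36. Their part in the result was not tested. The late genes with a smaller response in impk36 to both peptides were 78 of 130 for flg22 and 78 of 87 for pep3. Over all genes the response was smaller for 6.86% with flg22 and 8.48% with pep3. The sets share no library. How many of all genes were smaller for both was not counted, so the overlap has no background and was not tested. PAD3 was at 1.54, 1.59 and 1.15 CPM in WT without pep3 and at 51.9, 54.3 and 52.6 CPM with it, but at 1.70, 2.05 and 2.08 CPM with it in impk36 (difference -4.64 ± 0.49, adjusted p = 2.1e-08). The stimulated lines did not overlap. PAL1 reached 540, 514 and 618 CPM in WT and 126, 128 and 138 CPM in impk36. RLP23 was again higher in impk36, with 44.8, 41.2 and 58.0 CPM against 8.63, 8.90 and 10.2 CPM in WT, a difference of 2.95 ± 0.75 (adjusted p = 0.0057).

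The peptides did not give the same picture for every gene in impk36. ACD6 reached 115, 75.8 and 105 CPM with pep3 in impk36, where WT was at 136, 164 and 262 CPM, and its responses differed by -0.28 ± 0.67 (adjusted p = 0.83), whereas for flg22 the difference was -4.28 ± 0.32 (adjusted p = 5.7e-11). MC2 overlapped between the lines with pep3, at 80.0, 65.7 and 69.1 CPM in impk36 and 70.3, 70.0 and 67.1 CPM in WT. All 4 aspartyl proteases had a larger pep3 response in impk36 (median 0.90), and 0 of the 4 a larger flg22 response. The response was larger for 12 late genes with pep3 and 5 with flg22, and for 7.66% and 8.27% of all genes. Among these proteases AT3G51330, AT3G51340 and AT3G51350 are direct neighbours. Whether the line effect differs between the peptides was not tested, and each peptide has its own set. In impk4 the pep3 response was smaller for 5 late genes and larger for 0 in edgeR's test (0.580% and 0.123% of all genes), and 39 passed an unadjusted p under 0.05. The 5 were RLP23, GSR 1, MC2, STP4 and ZIP5, and leaving out single libraries gave 2 to 10.

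Wounding raised 126 of the 198 late genes and lowered 14 (28.7% and 24.8% of all genes), with a median log2 change of 0.47. Among the early and sustained genes 735 of 863 rose. The summed leaf markers went from 18517 to 18693 CPM to 13312 to 14009 CPM with wounding, and their part in the result was not tested. AOC1 was at 11.6, 16.0 and 14.2 CPM without and at 655, 658 and 660 CPM after wounding, and AT3G63380 rose by 4.45 ± 0.16. AOC1 has close copies in the genome, so its reads may be shared with them. ELI3-2, a cinnamyl alcohol dehydrogenase family member, had at most 0.069 CPM in the 3 unstimulated libraries and 102, 85.3 and 90.2 CPM after wounding. MC2 was at 7.00, 6.67 and 5.83 CPM before and 6.49, 4.11 and 4.09 CPM after, which overlap, and was called lower at adjusted p = 0.04.

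H2O2 raised 100 of 189 tested late genes and lowered 12 (21.1% and 18.9% of all genes), with a median of 0.34. UVB raised 67 and lowered 36 of 189 (19.3% and 21.5%), with a median of 0.11. The summed root markers went in WT from 3196 to 3466 CPM to 2354 to 2888 CPM with H2O2 and from 3364 to 4066 CPM to 1524 to 1736 CPM with UVB, and they were at 1916 to 2447 CPM in impk36 with UVB. Their part in the results was not tested. With H2O2, AT3G63380 rose by 2.68 ± 0.10 on the log2 scale (adjusted p = 5.8e-13), and 9 of 10 detoxification enzymes and P450s rose. The sulfate transporter SULTR1;2 fell with UVB, from 45.6, 84.6 and 49.2 CPM to 13.7, 11.3 and 12.2 CPM, without overlap. Between stimulated seedlings, 71 late genes were lower and 0 higher in impk36 than in WT with H2O2 (8.02% and 3.01% of all genes; edgeR, 106 at an unadjusted p under 0.05), and 42 were lower and 2 higher with UVB (6.10% and 3.63%). Of the early and sustained genes, 561 of 823 were lower and 6 higher in impk36 with H2O2. With UVB 483 of 838 were lower and 13 higher, so in both cases a larger share than of the late genes was lower. These are differences in level, since neither line was measured there without the stimulus. For late genes in impk4 the counts were 1 lower and 1 higher with H2O2 (0.822% and 0.367% of all genes) and 3 lower and 0 higher with UVB (0.403% and 0.294%), where 38 passed an unadjusted p under 0.05. Same-numbered libraries of the UVB pair correlated, and with the replicate number as a block 7 were lower and 0 higher.

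The plant hormones moved the late genes both ways. Methyl jasmonate raised 43 and lowered 47 of 197 (16.1% and 16.1% of all genes), and abscisic acid raised 36 and lowered 43 (16.7% and 13.7%). AOC1 rose with methyl jasmonate from 13.3, 10.8 and 8.88 CPM to 586, 677 and 503 CPM, and CYP83B1 by 2.56 ± 0.16. MC2 fell with both hormones, by 0.99 ± 0.15 with methyl jasmonate and by 1.63 ± 0.17 with abscisic acid. The transcription factor ABI5 of abscisic acid signalling rose with that hormone from 6.53, 6.03 and 6.24 CPM to 19.9, 21.1 and 19.3 CPM. The stimuli number 7, namely 1 h of flg22, pep3, wounding, UVB, H2O2 and the hormones. With all of them 5 members rose, namely GSTU4, PAL1, A/N-InvC, GID1B and NPX1, and 6 members rose with 1 stimulus. All genes were not counted in this way, so these numbers have no background and only describe the members.

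**Figure D4:**
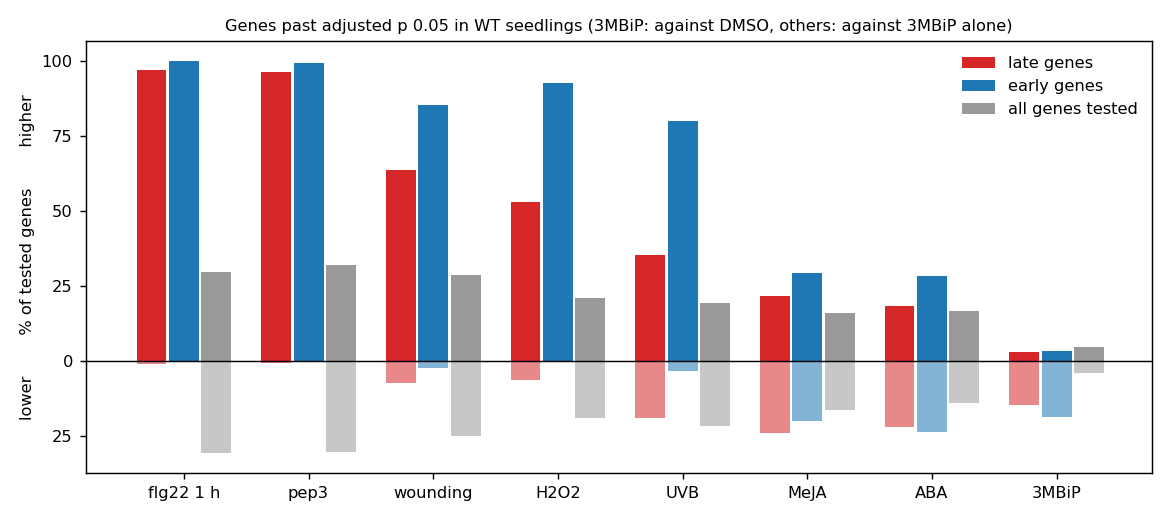
Shares of late genes, early and sustained genes and all tested genes called higher and lower with treatments of WT seedlings. 3MBiP is set against DMSO and the others against 3MBiP alone, with flg22 at 1 h only. Late genes are called higher most often with 1 h of flg22 (192 of 198) and pep3 (190 of 197).

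In adult impk4 shoots the shares of late genes moved by the inhibitor lay near those of all genes at 3, 6 and 12 h. Against the mock of the same time, 0 rose and 1 fell at 3 h (0.260% and 0.0192% of all genes; edgeR, 23 at an unadjusted p under 0.05, and DESeq2 also called 0 higher). The counts were 7 higher and 2 lower at 6 h (3.06% and 3.03%) and 20 higher and 9 lower at 12 h (8.48% and 5.71%). After 24 h 70 of 189 were higher and 15 lower (13.7% and 11.5%). The adult set holds no WT shoots with 3MBiP. Effects of the compound in any plant and effects particular to impk4 therefore cannot be told apart. Leaving out 1 library gave 0 to 6 higher at 6 h in place of 7. MC2 was called at 6 h, with 5.74, 6.58 and 4.46 CPM against 2.61, 2.85 and 2.89 CPM in the mock, and again at 24 h, with 12.9, 10.3 and 17.1 CPM against 1.06, 1.82 and 1.11 CPM. The aspartyl protease AT3G51330 rose by 0.76 ± 0.19 at 6 h and by 2.37 ± 0.20 at 24 h. ACD6, which is abundant in adult shoots at 1149 to 1313 CPM untreated, rose by 2.71 ± 0.23 at 24 h. At 12 and 24 h the summed root markers were also higher, at 389 to 483 CPM with 3MBiP and 93.6 to 183 CPM in the mock, and their part in the result was not tested.

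Untreated mpk4 shoots were set against untreated impk4 shoots of 0 h. In mpk4, 151 of 189 tested late genes were higher and 19 lower, with a median log2 difference of 1.81. This has to be read beside 45.5% higher and 32.7% lower over all genes, whose median was 0.19, and beside 626 of 823 early and sustained genes higher. PAD3 was at 257, 308 and 262 CPM in mpk4 and at 0.509, 0.779 and 1.72 CPM in impk4, and CYP76C2, another P450, was at 17.3, 23.8 and 26.1 CPM against 0.153, 0.156 and 0.394 CPM. The peroxidase gene Prx37 had 0 counts in all 3 untreated impk4 libraries and a mean of 22.4 CPM in mpk4, at least 147-fold higher against a floor of 3 counts per library. A neighbouring peroxidase gene, also a member, is a near copy, so reads of the pair may be split. RLP23 was at 467, 640 and 529 CPM in mpk4 and at 29.0, 53.9 and 26.01 CPM in impk4. In each of these genes every mpk4 library lay above every impk4 library.

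By role, all 15 receptors were higher in mpk4 (median 2.34), and so were all 9 peroxidases and wall proteins, 18 of 19 transport genes and all 4 indole and all 4 sphingolipid genes. Of all 189 late genes tested 151 were higher, and 45.5% of all genes were. Phenylpropanoid genes did not move as a group, with 2 higher and 2 lower of 5. MTO3 was lower, at 103, 77.9 and 78.9 CPM against 152, 207 and 156 CPM, and 4CL1 at 112, 125 and 118 CPM against 230, 209 and 228 CPM. AOC1 was lower by 3.81 ± 0.84 (adjusted p = 3.3e-04). Clock time was not stated for mpk4, and among the impk4 mock groups late genes differed from 0 h too, with 41 higher and 75 lower at 3 h (34.7% and 34.4% of all genes; median -0.22) and 75 higher and 49 lower at 12 h (38.1% and 33.4%; median 0.33). Set against the mock groups of 3, 6, 12 and 24 h, a choice made after the data were seen, mpk4 had 156, 156, 155 and 159 late genes higher (36.7%, 36.6%, 35.6% and 40.3% of all genes). The median log2 difference was 1.17 against the mock of 12 h, where it was 1.81 against 0 h. The summed leaf markers were at 8075 to 9628 CPM in mpk4 and 26127 to 31596 CPM in untreated impk4, the root markers at 221 to 292 CPM and 60.4 to 65.4 CPM, and the 1 flower marker that was tested at most at 3.30 CPM in all adult groups. Their part in the result was not tested.

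**Figure D5:**
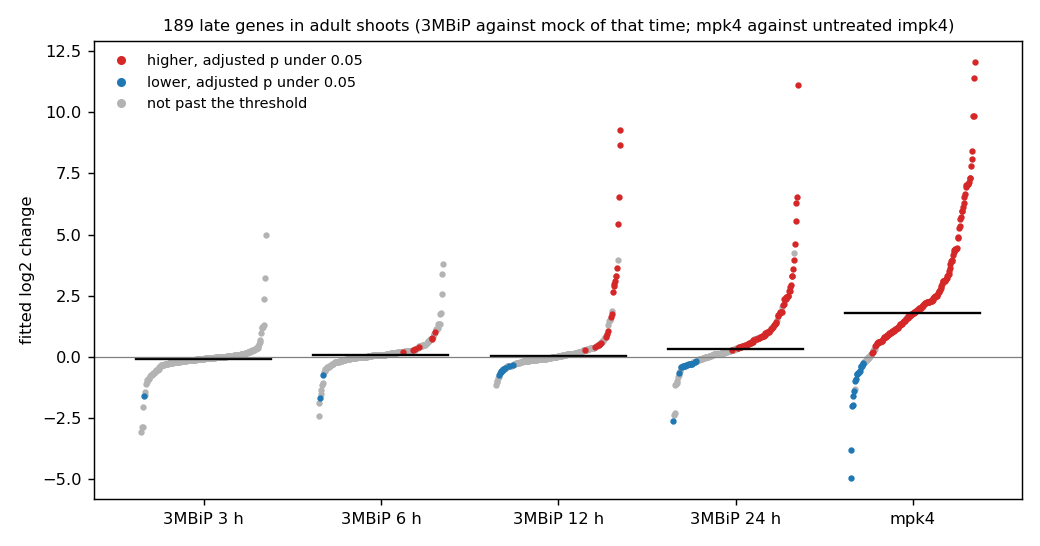
Fitted log2 changes of the 189 late genes tested in adult shoots, for 3MBiP against the mock of the same time at 3, 6, 12 and 24 h and for mpk4 against untreated impk4. The median is 0.33 at 24 h and 1.81 in mpk4.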

How the data were processed

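Total RNA was sequenced after an Illumina TruSeq v2 library preparation, per the labels' protocols. The authors deposited raw read counts per locus, 1 library per file, made with TopHat and HTSeq against TAIR10 per the submitters' processing notes, and their versions and strand setting are not given in the sources used here. Lines with no gene were left out, and they held 0.829 to 2.30% of reads in no feature and 5.38 to 42.4% not uniquely aligned. Gene counts per library (M) were 20.5 to 27.8 for the time course, 17.6 to 33.9 for B1, 13.9 to 38.1 for B2, 23.5 to 33.8 for B3, 28.2 to 40.4 for B4 and 18.9 to 29.3 for adult shoots. Reads carry no molecular identifiers, so the floor of 3 counts covers counting error only.

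Groups follow the labels. Each of the sets B1 to B4 and the adult set was fitted alone by edgeR 4.0.16 under R 4.3.3, each group having its own mean, with filterByExpr and TMM normalisation, with two-sided quasi-likelihood F tests, and p-values were adjusted by Benjamini-Hochberg over all genes tested in a comparison. A gene was called at an adjusted p under 0.05. Tests covered 21211 (B1), 21223 (B2), 21109 (B3), 21543 (B4) and 20806 (adult) genes, with 197, 198, 189, 189 and 189 late genes among them. The other late genes were too low to test. A difference of responses is the interaction of line and stimulus. Levels are CPM of the rule in the time course and CPM after TMM normalisation elsewhere, and they are not compared between sets. A value after ± is a standard error, computed from the F statistic, on 3 libraries per group. All 135 pairs of replicate libraries differed beyond sampling noise (chi-square per degree of freedom 1.98 to 62.9).

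The members, the gene lists and the rule for named genes were chosen with earlier results of these data known. Named are members of the pathway lists, those with the 10 highest 60 min ratios and levels, and the strongest calls of each comparison, and RLP23, MC2, ACD6 and the aspartyl proteases recur because of it. LOH2, LCB1 and further examples of a role were picked after their values were seen. The lists of endoplasmic reticulum folding, salicylic and pipecolic acid, jasmonate, ribosome biogenesis, proteasome and early pattern-triggered genes were counted as well. Symbols, structures and sequences come from RefSeq TAIR10.1. On simulated counts for the step from 30 min to 1 h, over 20924 genes, 42 of 50 genes changed 1.5-fold and 48 of 50 changed 2-fold were recovered, with 8 false calls. Alternatives were DESeq2 1.42.0, RLE scaling, no filter, fits of the compared groups alone, the replicate number as a block and leaving out each library. Where the protocol in the labels gives 1 h of incubation and a group name says 30 min (3 groups with flg22), the name was followed. Same-numbered libraries correlated above 0.1 in all 3 pairs in the step from 30 min to 1 h in WT (r 0.15 to 0.199) and impk4 (0.122 to 0.209), between impk4 and WT with UVB (0.18 to 0.304) and between mock 3 h and 0 h in adult shoots (0.116 to 0.276).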

Additional observations from a re-analysis of the deposited data

Results flagged for a closer look

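These results concern responses that differ between lines, by the tested interaction of line and stimulus in edgeR. For 1 h of flg22 the response in impk36 was smaller than in WT for 130 late genes and larger for 5. Over all genes the shares were 6.86% and 8.27%. In impk4 the response was smaller for 33 late genes and larger for 26 (4.6% and 5.85% of all genes). For the step from 30 min to 1 h, 116 were smaller and 6 larger in impk36 (5.84% and 8.68% of all genes). In impk4 the step was smaller for 31 and larger for 15 (2.61% and 3.71%). For pep3 the response was smaller for 87 and larger for 12 in impk36 (8.48% and 7.66% of all genes). In impk4 it was smaller for 5 and larger for 0 in edgeR's test (0.58% and 0.123% of all genes). There 39 passed an unadjusted p under 0.05, and DESeq2 called 7 smaller. The 1 h and step results share libraries.

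In impk36, the log2 difference of the flg22 response from WT was -4.56 for PAD3, -4.28 for ACD6, -4.06 for ABCG40, -3.12 for the P450 gene CYP76C2 and -2.71 for AOC1. It was 3.93 for RLP23, 1.23 for AT2G02680, 0.74 for AT5G49680, 0.63 for EDF3 and 0.60 for AT2G43850. For pep3 it was -4.87 for the peroxidase gene PRX52, -4.64 for PAD3, -3.47 for ABCG40, -3.33 for CYP76C2 and -2.90 for the glutathione transferase gene GSTU4. It was 2.95 for RLP23, 1.80 for AT1G44050, 1.40 for AT2G28970, 1.27 for AT2G02680 and 0.64 for the cation exchanger gene CHX16. PRX52 and CYP76C2 were low throughout, below 4 CPM in the libraries compared.

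In impk4, the flg22 response differed by 1.67 for AOC1, 1.45 for PAD3, 1.32 for ABCG40, 1.09 for CYP83B1 and 0.91 for TSA1, and by -1.88 for RLP23, -1.36 for MYB122, -0.89 for CYP71B24, -0.88 for the acetyltransferase gene HAC4 and -0.82 for SKIP3. For pep3 it differed by -3.35 for RLP23, -0.90 for GSR 1, -0.72 for MC2, -0.57 for the sugar transporter gene STP4 and -0.49 for the zinc transporter gene ZIP5.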

How the results depend on the processing

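Of 325 alternatives to 26 counts, 18 moved a count by over 1.5 times. The rule gave 71 late genes with a 60 min threshold of 2 and 91 with a 30 min window of 0.25, 238 with a pseudocount of 0.5 and 184 to 205 with 1 library left out. TMM-scaled levels gave 203, which held 141 of the 198, and leaving out a 0 min library kept 169 or 176 of them. Late genes with a smaller pep3 response in impk4 numbered 1 when the compared groups were fitted alone and 2 to 10 with 1 library left out, the lowest without replicate 1 of unstimulated WT or replicate 2 of unstimulated impk4 and the highest without replicate 3 of pep3-treated impk4. Late genes higher at 6 h in adult shoots numbered 15 with these groups alone and 0 to 6 with 1 library left out, 0 without 3MBiP replicate 1. Unstimulated impk4 in B1 had 0 late genes higher in edgeR (19 called in either direction at an unadjusted p under 0.05), 1 by DESeq2 and 0 to 1 with 1 library left out, the 1 without impk4 replicate 1. The cause of these shifts was not tested. The other counts moved by less, for example 189 to 192 for late genes higher after 1 h of flg22 and 124 to 134 for smaller responses in impk36.

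With the replicate number as a block, 192 late genes rose between 30 min and 1 h of flg22 in WT, against 190 without it. As alternatives added after the data were seen, the block gave 7 late genes lower in impk4 than in WT with UVB, against 3, and 40 higher and 72 lower at mock 3 h in adult shoots, against 41 and 75. In the other comparisons printed, not all same-numbered pairs correlated above 0.1, though a pair among the pep3 and unstimulated groups of impk4 and WT reached 0.486. The block moved none of the 26 counts by over 1.5 times. For named genes 1434 of 1536 alternatives kept the call and direction, 100 lost the call, 2 gained it and 0 reversed; ZIP5 and RLP23 in impk4 lost it most often. Shares of members called depend on the list too. With members from TMM-scaled levels 30.5% rose after 30 min of 2 nM flg22, against 43.4%, while after 1 h 95.6% rose, against 192 of 198, and 59.1% had a smaller response in impk36, against 65.7%. Depth limits members below 1 CPM, where a few reads decide a fold change.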

Other observations

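The other gene lists were counted in the same comparisons. Over all genes, 22.1% rose and 21.1% fell at 30 min of 2 nM flg22, 29.8% and 30.6% at 1 h, and 24.5% and 25.3% between these times. Of 16 early genes of pattern-triggered immunity, 14 of them early and sustained, 16 rose at 30 min and 16 at 1 h of 2 nM flg22, and between these times 5 rose and 10 fell, with a median log2 change of -1.59. Of 14 genes of ribosome biogenesis, 0 rose and 9 fell at 30 min, and 12 rose and 0 fell between 30 min and 1 h, with a median of 0.22. Of 20 proteasome genes, 7 rose and 0 fell in that step, with a median of 0.04. Of 23 tested genes of salicylic and pipecolic acid, 18 rose and 1 fell at 1 h, and of 21 genes of folding in the endoplasmic reticulum 7 rose and 12 fell. In mpk4 shoots all 21 of these folding genes were higher than in untreated impk4 shoots, with a median log2 difference of 2.32, beside a median of 0.19 and 45.5% higher over all genes. Of 18 jasmonate genes, AOC1 among them, 13 rose and 3 fell at 1 h.

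Late genes with and without a W-box in the 300 bases around the gene start were set side by side. The shares over all genes were 22.1% higher and 21.1% lower at 30 min, and 29.8% higher and 30.6% lower at 1 h. Of the 97 with a W-box, 52 rose and 7 fell after 30 min of 2 nM flg22 (median 0.38), and 97 rose after 1 h. Of the 101 without, 34 rose and 9 fell after 30 min (median 0.18), and 95 rose and 2 fell after 1 h. The response to 1 h was smaller in impk36 than in WT for 61 and 69 of them, beside 6.86% of all genes. These groups were not tested against each other.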
